A study of Mus musculus with 8 samples.

Results

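The interaction of THOC5 overexpression with osteogenic medium is the difference between 2 medium responses. Both were measured in primary vascular smooth muscle cells of the mouse, which form the muscle layer of the artery wall and set its tone. For each gene, the log2 change from growth to osteogenic medium in control cells was subtracted from the same change in cells overexpressing THOC5. A positive value means that the change in THOC5 cells lay above that in control cells, and a value of 0 means equal changes. It was computed for 22575 of the 27249 genes in the deposited table, which were those with at least 1 normalized count in at least 2 libraries.

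The 8 polyA RNA libraries formed 4 groups of 2. Control cells, labelled with the wild-type genotype and overexpressing green fluorescent protein (GFP), grew in growth medium or received osteogenic medium. Cells overexpressing THOC5 were kept in the same media, and the series design gives the osteogenic treatment as inorganic phosphate (Pi) over 6 days. The vector and promoter behind either protein, the age of the donor mice, and whether replicates were separate cultures are not stated by the labels or the design text. The p-values therefore measure the spread between these libraries, which may be technical.

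THOC5 belongs to the THO complex, which travels with RNA polymerase and hands processed mRNA to the nuclear export machinery. High phosphate drives cultured smooth muscle cells away from their contractile state and towards one that deposits mineral, a model of the calcification of arteries. The loss of contractile proteins and a gain of bone regulators such as Runx2 are the usual readouts of that transition. The comparison asks whether the transition's transcript changes differ once THOC5 is in excess.

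Groups were checked first against the genes that define them. Thoc5 measured 458 and 471 normalized counts in the GFP growth libraries and 650 and 615 in the GFP osteogenic ones. In the THOC5 cells the growth libraries measured 2155 and 1406 and the osteogenic ones 1780 and 1937, above every GFP library. Its own interaction was -0.35 ± 0.22 (log2, SE; limma adjusted p = 0.378). That value depended on the THOC5 growth libraries: without THOC5 growth replicate 2 it was -0.66 and passed (limma adjusted p = 0.022, edgeR 0.00753), and without replicate 1 it was -0.04. Reads of the introduced and the resident gene were not separated. The smooth muscle markers were present in all 8 libraries, with Acta2 between 9489 and 25293 normalized counts and Lmod1 between 653 and 2131, while Des (desmin) stayed between 7.72 and 25.9.

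Recovered reads ran from 7058681 to 10581042 per library. Principal component 1, carrying 76.3% of the variance, set the GFP osteogenic libraries apart, with scores of 49.2 and 38.5 against -21.2 to -10.7 for the other 6. Since they make up a whole group, no comparison can be made without both, and each was left out in turn.

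Sequence context was taken from RefSeq promoters on GRCm38.p6, which covered 13355 of the 22575 tested genes (59.2%). These windows run from 250 bases before to 50 after a gene's start. The sequences below are the 250 bases before the start of 4 genes, written 5′ to 3′ along the gene's strand, with the matched letters in capitals. All 4 hold a match, which many other named genes do not. Gclm is an example of genes that changed with medium in GFP cells and not detectably in THOC5 cells. Isg15 and Oas1a are examples of genes raised in both kinds of cells, and Cxcl10 of a gene raised more in GFP cells. They lie at chr3:122245307-122245556 (plus strand), chr4:156200819-156201068, chr5:120907526-120907775 and chr5:92348890-92349139 (minus strand for these last).
Gclm: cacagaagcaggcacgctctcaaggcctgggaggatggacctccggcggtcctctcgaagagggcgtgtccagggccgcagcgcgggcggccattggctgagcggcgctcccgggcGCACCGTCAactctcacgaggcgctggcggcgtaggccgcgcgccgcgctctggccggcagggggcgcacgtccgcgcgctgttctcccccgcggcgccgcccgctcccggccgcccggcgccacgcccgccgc
Isg15: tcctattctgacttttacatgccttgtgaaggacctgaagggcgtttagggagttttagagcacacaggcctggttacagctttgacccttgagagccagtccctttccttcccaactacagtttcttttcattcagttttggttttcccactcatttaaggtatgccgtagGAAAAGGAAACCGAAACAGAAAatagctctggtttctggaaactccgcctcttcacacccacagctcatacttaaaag
Oas1a: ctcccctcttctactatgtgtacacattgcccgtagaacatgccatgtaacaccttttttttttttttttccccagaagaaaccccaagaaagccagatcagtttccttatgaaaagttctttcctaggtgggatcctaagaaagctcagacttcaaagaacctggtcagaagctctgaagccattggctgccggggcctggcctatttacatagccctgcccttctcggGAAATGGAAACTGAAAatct
Cxcl10: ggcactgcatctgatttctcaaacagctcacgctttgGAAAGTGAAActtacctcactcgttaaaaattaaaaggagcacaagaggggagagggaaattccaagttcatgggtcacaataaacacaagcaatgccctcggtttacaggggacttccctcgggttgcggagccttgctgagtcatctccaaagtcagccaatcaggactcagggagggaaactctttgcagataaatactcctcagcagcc

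The capitals in Gclm are the reverse complement of TGACNNNGC, the core of the antioxidant response element, to which NRF2 binds. The other capitals match GAAA, any 2 bases and GAAA again, the core of the interferon-stimulated response element, which STAT and IRF factors recognise. Isg15 holds 3 overlapping matches that begin 78, 72 and 66 bases before the start, Oas1a holds 2 that begin 20 and 14 bases before it, and Cxcl10 holds 1. Searching both strands of the windows, the antioxidant core occurred in 12 of 30 NRF2 and oxidative stress genes (40.0%) and in 16.5% of all tested genes with a promoter. The interferon core occurred in 21 of 39 interferon genes (53.8%) and in 3.70% of all. TGATGNAA, the core of the element bound by ATF4, occurred in 7 of 28 integrated stress genes (25%) and in 2.86% of all. The CArG box, the site of serum response factor, was searched as CCWWWWWWGG, with W for A or T. It occurred in 3 of 20 contractile genes (15.0%) and in 1.68% of all. No match was found for Nqo1 and Slc7a11 (antioxidant core), or for Irf7, Ube2l6, Psmb8, Ifi35 and Uba7 (interferon core). Psat1 lacked the ATF4 core, and Acta2, Cnn1 and Mylk lacked an exact match to the CArG letters. Variants of these letters were not searched. The Acta2 promoter holds CCCTATATGG and CCTTGTTTGG, each a single base away from them. Srxn1, Txnrd1, Ifih1, Asns and Trib3 held a match to their list's core in at least 1 window. A match describes the letters only and is not a measured binding site.

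The medium changed far more genes in GFP cells than in THOC5 cells by number of calls, and in most genes with an interaction the GFP osteogenic libraries were the ones set apart. Many genes of the contractile apparatus and the extracellular matrix, and some calcification inhibitors, fell in GFP osteogenic cells and had small changes in THOC5 cells that did not pass. Many genes of glutathione synthesis, amino acid stress and p53 signalling rose in GFP osteogenic cells, again with small values in THOC5 cells. Most interferon genes rose in both kinds of cells, 45 of 53 in GFP cells and 48 of 53 in THOC5 cells. Among all tested genes the shares that rose were 10.3% and 0.532%.

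limma called an interaction in 2082 genes, 9.22% of those tested, at a Benjamini-Hochberg adjusted p under 0.05. Of these 1197 were higher (5.30%) and 885 lower (3.92%), and 444 and 292 of them reached 2-fold. By edgeR's quasi-likelihood test the count was 2458 and by DESeq2 1939. Scaled to library totals the split turned from 57.5% higher to 39.1% higher, with the median of all genes at -0.10 in the interaction and 0.13 in the GFP response. The medium response itself passed in 4698 genes in GFP cells (20.8%), 10.3% higher and 10.6% lower. In THOC5 cells it passed in 122 (0.540%), of which 120 were higher (0.532%) and 2 lower (0.00886%). On simulated interactions the test recovered 0 of 67 genes changed 1.5-fold, 44.8% of 67 changed 2-fold and 98.5% of 66 changed 4-fold. Far fewer genes were changed in the simulation than were called here, which makes the adjusted threshold stricter. These rates therefore do not carry over to the data, where 736 of the 2082 called genes reached 2-fold.

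Each library was then left out. Without GFP growth replicate 1, limma called 0 interactions, with a smallest adjusted p of 0.0514, 1943 genes under 0.1 and 5060 genes at an unadjusted p under 0.05. edgeR called 1780 and DESeq2 1393 in that setting. Without GFP growth replicate 2 limma called 103, and without THOC5 osteogenic replicate 2 it called 366. Without GFP osteogenic replicate 1, THOC5 growth replicate 1 or THOC5 osteogenic replicate 1 it called 612, 778 and 796. All 2082 genes kept their sign in each of these settings, and the median ratio to the full value lay between 0.91 and 1.09. These fits reuse most of the libraries that made the calls, so the agreement is no further test of them. The cause of the lost calls was not tested.

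**Figure D1:**
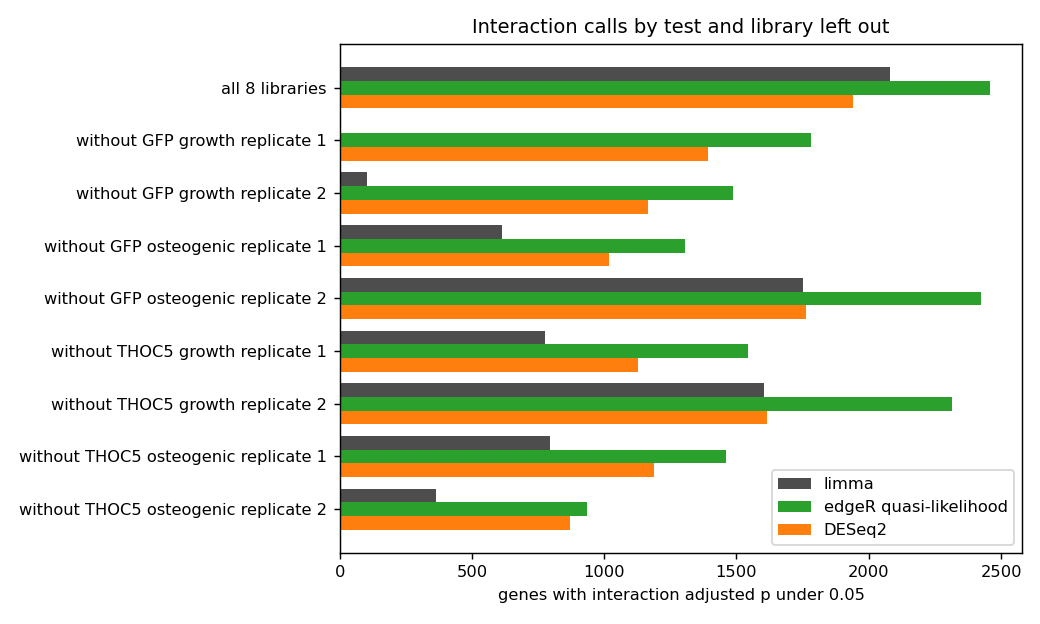
Bars give the number of genes with an interaction adjusted p under 0.05 by 3 tests, with all 8 libraries and without each library in turn. The limma bar is at 0 without GFP growth replicate 1, where edgeR stands at 1780 and DESeq2 at 1393.

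The called genes shared a shape across the groups. In 1153 of the 1197 higher calls (96.3%) both GFP osteogenic libraries lay below the other 6, as they did in 18.4% of all tested genes. In 871 of the 885 lower calls (98.4%) they lay above the other 6, as in 18.9% of all. Among the higher calls the median medium response was -0.85 in GFP cells and 0.00 in THOC5 cells. Among the lower calls it was 0.75 in GFP cells and -0.09 in THOC5 cells. THOC5 and GFP cells differed by a median of 0.04 in growth medium in either set, and by 0.89 and -0.80 in osteogenic medium. These differences use the libraries that made the calls, so they describe the calls and are no further test of them.

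The 2 medium responses have no library in common, only the normalization, and can be set against each other. Over the 2314 genes raised by the medium in GFP cells, the THOC5 response had a median of 0.00 and quartiles of -0.10 and 0.13. Over the 2384 lowered genes its median was -0.04, and 1446 of them had a negative value in THOC5 cells. In the other direction, the 120 genes raised in THOC5 cells had a median response of 0.70 in GFP cells, and 115 of them were positive there. Genes called in both responses numbered 97, of which 95 rose in both, 2 fell in both and 0 moved in opposite directions. They are 2.06% of the GFP calls and 79.5% of the THOC5 calls. Across 10655 genes with a mean of at least 50 normalized counts the responses had a standard deviation of 0.56 in GFP cells and 0.21 in THOC5 cells, and correlated at r = 0.24 across genes, which are not independent replicates.

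**Figure D2:**
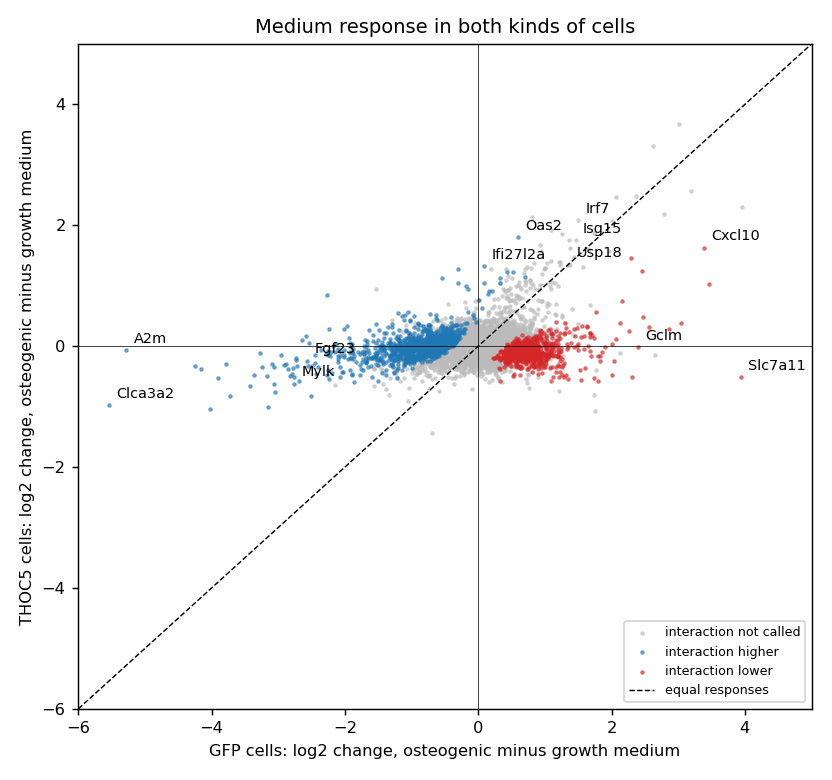
Each point is a gene with a mean of at least 50 normalized counts, placed by its log2 medium response in GFP cells (x axis) and in THOC5 cells (y axis), with the dashed line at equal responses. Called interactions lie along the horizontal axis, at median GFP responses of -0.85 (blue) and 0.75 (red), and the interferon gene Isg15 lies near the dashed line.

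Genes whose 4 osteogenic-minus-growth differences in THOC5 cells all exceeded the 4 in GFP cells made up 20.4% of those tested, and 18.4% had the reverse. The 10 highest interactions among called genes with the first pattern and a mean of at least 50 normalized counts are described next. A2m, the broad protease inhibitor alpha-2-macroglobulin (GRCm38 chr6:121635376-121679227), held 435 and 691 normalized counts in GFP growth libraries and 8.65 and 19.7 in GFP osteogenic ones. In THOC5 cells the growth libraries held 365 and 788 and the osteogenic ones 508 and 522. Both GFP osteogenic libraries lay far below the other 6, which overlapped one another. The interaction was 5.22 ± 0.53 (log2, SE; limma adjusted p = 4.84e-04), a 37.3-fold difference between the responses.

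Clca3a2, of the family of calcium-activated chloride channel regulators, went from 1985 and 1990 to 24.2 and 71.6 in GFP cells. In THOC5 cells it went from 2943 and 3860 to 1610 and 1840, so that it was lower in osteogenic medium in each kind of cell, by different amounts (4.57 ± 0.49, adjusted p = 5.79e-04). The kinesin gene Kif26b went from 784 and 814 to 32.0 and 59.9 in GFP cells and from 1056 and 1316 to 843 and 987 in THOC5 cells (3.79 ± 0.32, adjusted p = 2.87e-04). Fndc1, which encodes a fibronectin type III domain protein, went from 4418 and 4577 to 378 and 575, and from 4701 and 5689 to 4477 and 5086 (3.15 ± 0.23). For Fndc1 the THOC5 groups overlapped and only the GFP osteogenic libraries were set apart.

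Sfrp2, a secreted modulator of Wnt signalling, held 113 and 97.0 counts in GFP growth libraries, 9.51 and 10.7 in GFP osteogenic ones, 173 and 191 in THOC5 growth and 128 and 161 in THOC5 osteogenic libraries (2.91 ± 0.26). Scg2, a secretogranin of secretory granules, had an interaction of 2.99 ± 0.28 and the axon guidance gene Draxin one of 3.38 ± 0.38. The serpin gene Serpina3i (3.92 ± 0.51) and haptoglobin, Hp (3.50 ± 0.57), rest on as few as 2 and 3 reads in a GFP osteogenic library, and their fitted values depend on the added count. Nos2, the inducible nitric oxide synthase, was uneven between replicates, at 627 and 1864 in GFP growth libraries and 392 and 1181 in THOC5 growth libraries. Its osteogenic libraries held 182 and 276 in GFP cells and 1370 and 1095 in THOC5 cells (3.11 ± 0.71, adjusted p = 0.0204). Of these 10 genes limma called 0 without GFP growth replicate 1 and between 4 and 10 without any other single library, and edgeR called all 10 in each case.

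**Figure D3:**
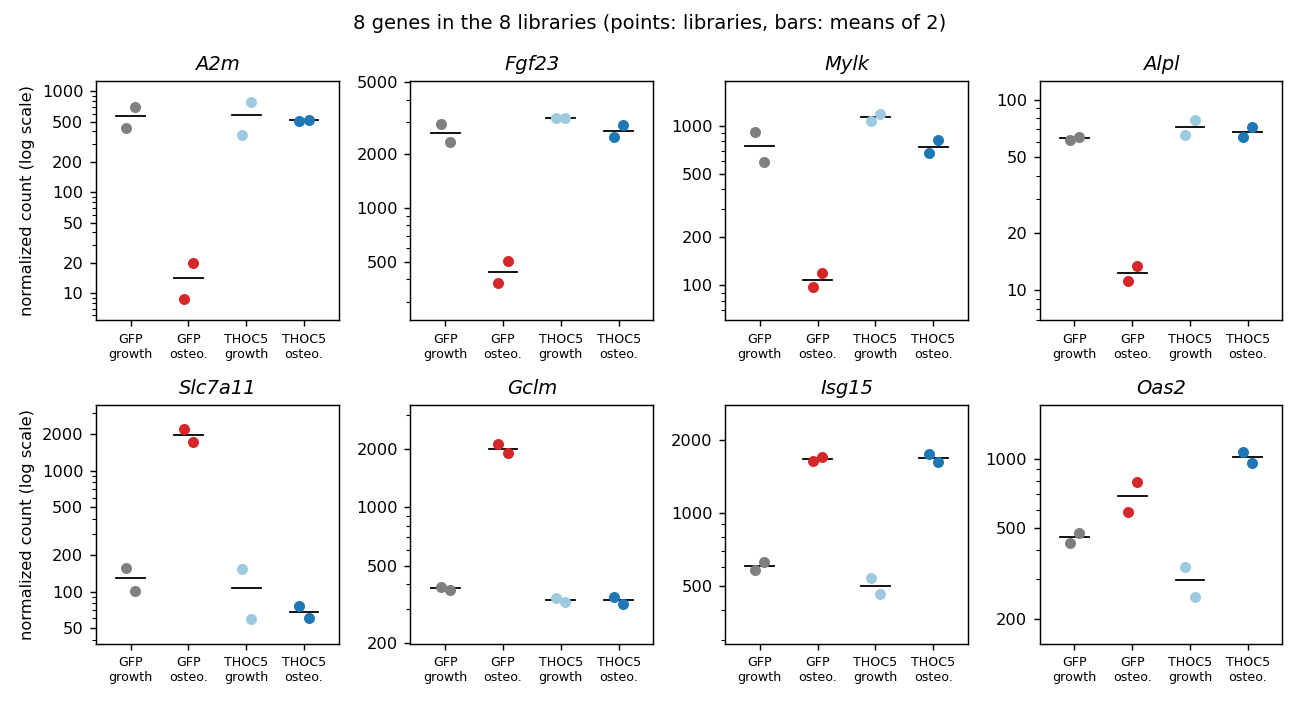
Normalized counts of 8 genes in the 8 libraries on log axes, with points for libraries and bars for the means of 2. The GFP osteogenic libraries (red) stand below the others for A2m, Fgf23, Mylk and Alpl and above them for Slc7a11 and Gclm, whereas Isg15 and Oas2 are raised in both osteogenic groups.

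The contractile list gave 13 of 24 members a higher interaction and 0 a lower one (54.2%, beside 9.22% of all tested genes). Its median was 0.57, beside -0.00 over all tested genes. In GFP cells 20 of the 24 fell and in THOC5 cells 0 passed, and the medians of the responses were -0.69 and -0.18. Among all tested genes 10.6% fell in GFP cells and 0.54% passed in THOC5 cells. Mylk, the kinase that switches on smooth muscle myosin (chr16:34745210-35002420), held 908 and 592 counts in GFP growth libraries and 96.9 and 119 in GFP osteogenic ones. In THOC5 cells the growth libraries held 1076 and 1193 and the osteogenic ones 673 and 809, so that the THOC5 groups did not overlap either. Its interaction was 2.14 ± 0.25 (limma adjusted p = 8.97e-04), a 4.41-fold difference.

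Myh11, the smooth muscle myosin heavy chain, stood at 140 and 109 against 32.9 and 37.6 in GFP cells, and at 131 and 158 against 95.4 and 113 in THOC5 cells (1.32 ± 0.26). Acta2, smooth muscle actin, stood at 23089 and 19635 against 9489 and 11175, and at 25293 and 25005 against 20106 and 21961 (0.79 ± 0.17). Cnn1, calponin, stood at 1482 and 1365 against 530 and 680, and at 1555 and 1683 against 1379 and 1477 (1.06 ± 0.16). For these 3 genes the GFP osteogenic libraries were the lowest of the 8. The integrin Itga8, which anchors smooth muscle to its matrix, followed with 1.69 ± 0.30.

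Not all contractile genes did so. Tagln, transgelin, measured 605 and 424 against 330 and 298 in GFP cells and 712 and 609 against 423 and 482 in THOC5 cells. The responses were -0.69 and -0.54, and the interaction of 0.15 had a 95% interval of -0.33 to 0.63 (limma adjusted p = 0.749). Des (-1.31) and Synm (-0.88), intermediate filament genes, had negative values that did not pass. Of the 7 core genes called, which include the mineralization genes described next, limma kept 0 without GFP growth replicate 1 and 2 to 7 without any other library, and edgeR kept 7 in each case. The contractile count of 13 fell to between 1 and 11 by limma without any library other than GFP growth replicate 1, and to between 10 and 13 by edgeR.

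Of 18 transcription factors of smooth muscle tested, 3 had a higher interaction and 0 a lower one (16.7%, beside 9.22% of all tested genes). Prrx1, a mesenchymal homeobox factor, held 6024 and 6914 counts against 2848 and 3662 in GFP cells and 6196 and 5991 against 6307 and 5938 in THOC5 cells (1.00 ± 0.17). Mrtfa, the actin-sensing partner of serum response factor, had an interaction of 0.56 ± 0.11, and the Hippo pathway factor Tead3 one of 0.66 ± 0.18. The partner factor Srf (0.44, limma adjusted p = 0.119), Klf4 (-0.09, adjusted p = 0.800), which represses contractile genes, and Myocd (-0.65, adjusted p = 0.487), which activates them, did not pass. Without single libraries limma called 0 to 2 of the 3, and edgeR 1 to 3.

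Among 18 osteochondrogenic genes tested, 3 had a higher interaction and 0 a lower one (16.7%, beside 9.22% of all tested genes). Of the 18, 9 had a mean of at least 50 normalized counts. The medians of the medium response were -0.15 in GFP cells and -0.06 in THOC5 cells. Alpl, the alkaline phosphatase of mineralizing cells (chr4:137741733-137796384), held 61.8 and 63.8 counts in GFP growth libraries and 11.2 and 13.4 in GFP osteogenic ones. In THOC5 cells it held 65.6 and 78.3, and 63.6 and 72.3, which overlap (2.18 ± 0.30, limma adjusted p = 0.00188). Bmp4, a bone morphogenetic protein, had an interaction of 1.07 ± 0.15, and Col10a1, the collagen of hypertrophic cartilage, one of 1.65 ± 0.43.

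Runx2, the master factor of osteoblasts, measured 797 and 723 against 464 and 568 in GFP cells and 830 and 648 against 696 and 603 in THOC5 cells. It fell in GFP cells, and the interaction of 0.38 had an interval of -0.04 to 0.81 (adjusted p = 0.265). Spp1, osteopontin, measured 299 and 234 against 1192 and 468 in GFP cells, a wide spread, and 292 and 311 against 414 and 361 in THOC5 cells (-1.13, adjusted p = 0.145). Sox9 did not pass, at -0.27. Sp7 (1.57) and Bmp2 (-1.46) did not pass either, and with means of 1.99 and 4.12 normalized counts their values rest on few reads.

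Inhibitors of calcification and genes of phosphate handling had 5 higher and 2 lower interactions among 21 tested (33.3%, beside 9.22% of all tested genes). Mgp, matrix Gla protein, which keeps arteries from mineralizing, held 5174 and 4037 counts against 1843 and 1800 in GFP cells. In THOC5 cells it held 5716 and 5590 against 5510 and 5658, overlapping values (1.31 ± 0.15, limma adjusted p = 8.05e-04). Fgf23, the phosphate-lowering hormone usually made by bone cells (chr6:127072902-127081408), held 2929 and 2324 against 380 and 504 in GFP cells and 3177 and 3152 against 2492 and 2882 in THOC5 cells (2.33 ± 0.20, adjusted p = 2.87e-04). Smpd3, a sphingomyelinase needed for normal mineralization, had an interaction of 1.45 ± 0.19, and the vitamin K-dependent ligand Gas6 one of 1.16.

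The sodium-phosphate importer Slc20a1 went the opposite way. It held 428 and 340 counts against 738 and 651 in GFP cells and 396 and 322 against 313 and 337 in THOC5 cells (-1.0 ± 0.19, adjusted p = 0.00941). Its sister transporter Slc20a2 (0.13, adjusted p = 0.748) and the exporter Xpr1 (0.04, adjusted p = 0.892) did not pass.

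The extracellular matrix list held the largest share of calls, at 74.4% beside 9.22% of all tested genes. Of its 43 members 32 were higher and 0 lower, and the median interaction was 1.02. In GFP cells 40 of the 43 fell, with a median of -1.17, and in THOC5 cells 0 passed, with a median of -0.12. The shares of all tested genes were 10.6% lower in GFP cells and 0.54% called in THOC5 cells. Col14a1, a fibril-associated collagen, held 3109 and 2958 counts against 368 and 562 in GFP cells, and 3404 and 3774 against 2984 and 3142 in THOC5 cells (2.51 ± 0.22, limma adjusted p = 2.87e-04). Emilin1, an elastic fibre glycoprotein, held 25864 and 26641 against 7495 and 9118, and 26031 and 31495 against 28140 and 30229 (1.69 ± 0.18). Col6a1, a chain of beaded-filament collagen, had an interaction of 1.66 ± 0.16. The fibrillar collagen genes Col1a1, Col1a2 and Col3a1 had values of 1.42, 1.43 and 1.70.

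Basement membrane genes varied. Col4a1 (0.89), Lama4 (0.94) and the perlecan gene Hspg2 (1.41) passed, while Lamb1 (0.10) and the nidogen gene Nid1 (0.03) did not. The microfibril gene Fbn2 stood at -0.74 in GFP cells and -0.71 in THOC5 cells, and at 0.03 in the interaction (adjusted p = 0.958). By edgeR 33 members were higher, with 25 to 34 when a library was left out, and limma called 3 to 30 without any library other than GFP growth replicate 1.

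Matrix proteases and their inhibitors gave 17 higher and 0 lower calls among 27 (63.0%, beside 9.22% of all tested genes). The median was 0.64. The metalloprotease Adam12 held 784 and 795 counts against 96.0 and 144 in GFP cells and 947 and 1038 against 863 and 863 in THOC5 cells (2.54 ± 0.21). Adamts1, which cleaves proteoglycans, had an interaction of 1.5 ± 0.17.

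Markers of adventitial fibroblasts moved beside the matrix genes. Of 16 listed, 7 had a higher interaction and 0 a lower one (43.8%, beside 9.22% of all tested genes). Of the markers 4, Lum, Dcn, Col14a1 and Mfap5, are also on the matrix list. Their summed level was 38027 to 47131 normalized counts in growth medium, 11937 and 15432 in GFP osteogenic libraries and 39539 and 44019 in THOC5 osteogenic ones. C3, described below with the acute-phase genes, is also on the fibroblast list. It went from 15924 and 14017 to 1389 and 2199 in GFP cells, a large part of the summed fall. Pdgfra, the platelet-derived growth factor receptor that marks these fibroblasts, held 2107 and 2114 against 889 and 1037 in GFP cells. In THOC5 cells it held 2446 and 2471 against 2391 and 2485 (1.12 ± 0.12). Dpt was at 3 reads or fewer in each library. In bulk RNA fewer cells of a type and less RNA per cell cannot be told apart, and the markers' part in the matrix result was not tested.

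Markers of other cell types were partly at or near 0. Of 14 macrophage markers 9, among them Adgre1 and Ptprc, were at 3 reads or fewer or not listed, and the summed level was 683 to 1232. Within that list Cd14 had an interaction of 1.17 ± 0.25 and Cd68 one of -0.69 ± 0.17. Cd68 did not pass by DESeq2 (adjusted p = 0.0875). Endothelial markers summed to 90.3 to 165, with Cdh5 at 3 reads or fewer. Vwf, at 2.11 ± 0.38, was the 1 member called among 8 tested (12.5%, beside 9.22% of all tested genes). The list as a whole went the other way, with medians of -0.24 in the interaction and 0.23 in the GFP response. For adipocytes Adipoq and Plin1, for Schwann cells Sox10, and for striated muscle Myh6 and Myod1 were at that floor or not listed. Schwann cell markers summed to 695 and 819 in GFP osteogenic libraries, below the 1176 to 1514 of the other 6, with 5 of 10 members at the floor or not listed. Mesothelial markers summed to 285 to 685, with 3 of 9 at the floor, and overlapped between the groups. Their part in the results was not tested. Single members of 3 lists passed, Lpl at -0.66 ± 0.18, Mbp at 0.75 ± 0.15 and the mesothelial factor Wt1 at 2.11 ± 0.57. For Lpl the DESeq2 adjusted p was 0.106, and for Wt1 the lowest library held 10 reads.

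**Figure D4:**
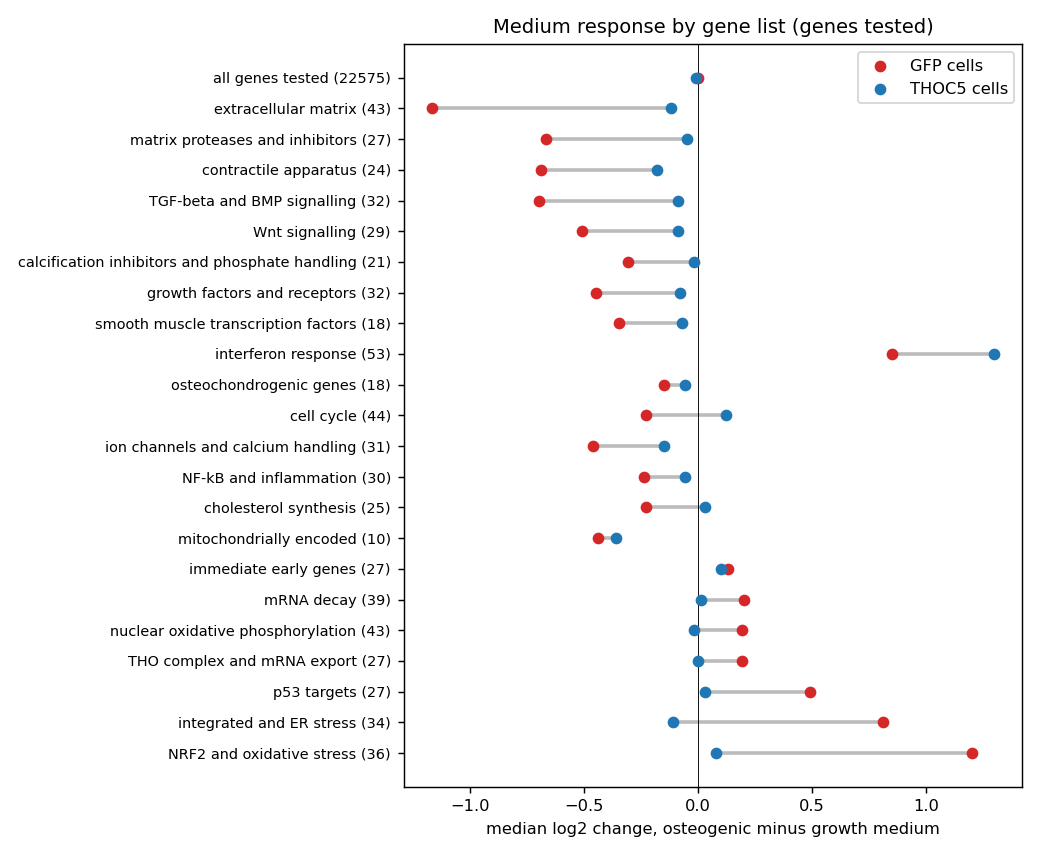
Median log2 medium response of each gene list in GFP cells (red) and THOC5 cells (blue), with the number of tested genes in brackets. Matrix, protease and contractile lists lie below 0 in GFP cells and near 0 in THOC5 cells, NRF2 and integrated stress lists lie at 1.20 and 0.81 in GFP cells and at 0.08 and -0.11 in THOC5 cells, and the interferon list lies above 0 in both.

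NRF2 is the transcription factor that answers oxidants by raising glutathione synthesis and detoxification. Its list gave 0 higher and 23 lower interactions among 36 genes (63.9%, beside 9.22% of all tested genes), with a median of -0.97. In GFP cells 28 of the 36 rose, with a median of 1.20, and in THOC5 cells 0 passed, with a median of 0.08. The shares of all tested genes were 10.3% higher in GFP cells and 0.54% called in THOC5 cells. Slc7a11, which brings in cystine for making glutathione (chr3:49892526-50443614), held 158 and 101 counts against 2199 and 1735 in GFP cells. In THOC5 cells it held 155 and 59.2 against 75.4 and 60.1, so that its THOC5 groups overlapped. The interaction was -4.44 ± 0.50 (limma adjusted p = 7.39e-04), the lowest among the called genes that met the naming rule, with a mean of at least 50 normalized counts.

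Gclm, the modifier subunit of glutamate-cysteine ligase, whose promoter is printed above, had the lowest adjusted p on the list. It held 386 and 376 counts against 2113 and 1894 in GFP cells and 342 and 323 against 346 and 316 in THOC5 cells (-2.39 ± 0.13, adjusted p = 3.76e-05). Srxn1, sulfiredoxin, held 508 and 475 against 2655 and 2102, and 434 and 429 against 553 and 480 (-2.01 ± 0.17). Txnrd1, thioredoxin reductase, held 3375 and 2873 against 12530 and 10827, and 3088 and 2674 against 2992 and 2687 (-1.92 ± 0.16). In these 3 genes the GFP osteogenic libraries exceeded every other library.

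Further enzymes repeated the shape. Gsta3, a glutathione transferase, had an interaction of -2.66 ± 0.42. Hmox1, heme oxygenase, and Nqo1, a quinone reductase, were picked for naming after their values were seen, with -1.74 ± 0.16 and -2.24 ± 0.22. Hmox1 held 6667 and 7568 against 34528 and 27827 in GFP cells and 5379 and 5865 against 7484 and 7167 in THOC5 cells. The regulator Nfe2l2, which encodes NRF2, passed at -0.46, while Keap1, its inhibitor, stood at 0.22 (adjusted p = 0.348). The peroxide-removing genes Prdx1 (-1.46, adjusted p = 0.00131), Prdx6 (-1.46, adjusted p = 0.00172) and Cat, catalase (-0.67, adjusted p = 0.014), also passed. The superoxide dismutases Sod1 (-0.35, adjusted p = 0.125) and Sod2 (0.44, adjusted p = 0.087), the glutathione peroxidase Gpx4 (-0.35, adjusted p = 0.144) and the glutathione synthetase Gss (-0.48, adjusted p = 0.147) did not. By edgeR 22 members were lower, 18 to 24 with a library left out, and by limma 8 to 23 without any library other than GFP growth replicate 1.

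The integrated stress response, which ATF4 drives when amino acids or protein folding fail, gave 0 higher and 12 lower calls among 34 genes. That share was 35.3%, beside 9.22% of all tested genes, and the median was -0.95. Asns, asparagine synthetase, held 1134 and 683 counts against 3381 and 2561 in GFP cells and 1411 and 669 against 704 and 652 in THOC5 cells (-2.26 ± 0.42, limma adjusted p = 0.00850). Psat1 and Psph, enzymes of serine synthesis, had interactions of -1.91 ± 0.38 and -2.49 ± 0.46, and Aldh1l2, a mitochondrial folate enzyme, one of -1.18 ± 0.16. Atf3, a stress-induced factor, had -2.81 ± 0.70 and Trib3, a pseudokinase target of ATF4, -2.37 ± 0.65, with a DESeq2 adjusted p of 0.0705 for Trib3. The chaperone genes Hspa5 (-0.32), Pdia4 (0.20) and Calr (0.42), which mark stress of the endoplasmic reticulum, did not pass.

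The growth libraries of these genes differed by replicate. The list's median deviation was 0.01 and -0.31 in GFP growth replicates 1 and 2, and 0.07 and -0.39 in THOC5 growth replicates 1 and 2. Both GFP osteogenic libraries, at 0.75 and 0.53, lay above all 4. With all libraries a higher interaction passed in 1 member by edgeR and in 2 by DESeq2. edgeR called 18 members lower and DESeq2 8, and limma called 0 to 18 when libraries other than GFP growth replicate 1 were left out.

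The p53 list gave 9 lower and 0 higher calls among 27 (33.3%, beside 9.22% of all tested genes), with a median of -0.34. Pmaip1, which promotes apoptosis, held 316 and 319 counts against 1059 and 968 in GFP cells and 283 and 220 against 252 and 222 in THOC5 cells (-1.75 ± 0.18). Mdm2, the ligase that degrades p53, had -1.14 ± 0.15 and the kinase Plk2 -1.36 ± 0.17. Cdkn1a, the cell cycle inhibitor p21, named after its values were seen, stood at -0.32 with an interval of -0.63 to -0.02 and an adjusted p of 0.188.

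Large lower interactions were also found outside these lists. Prl2c2, proliferin, had -2.43 ± 0.44, and the heat shock gene Hspa1b -2.29 ± 0.27. Of the 10 lowest genes limma called 0 without GFP growth replicate 1 and 1 to 10 without any other library, and edgeR called 8 to 10.

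**Figure D5:**
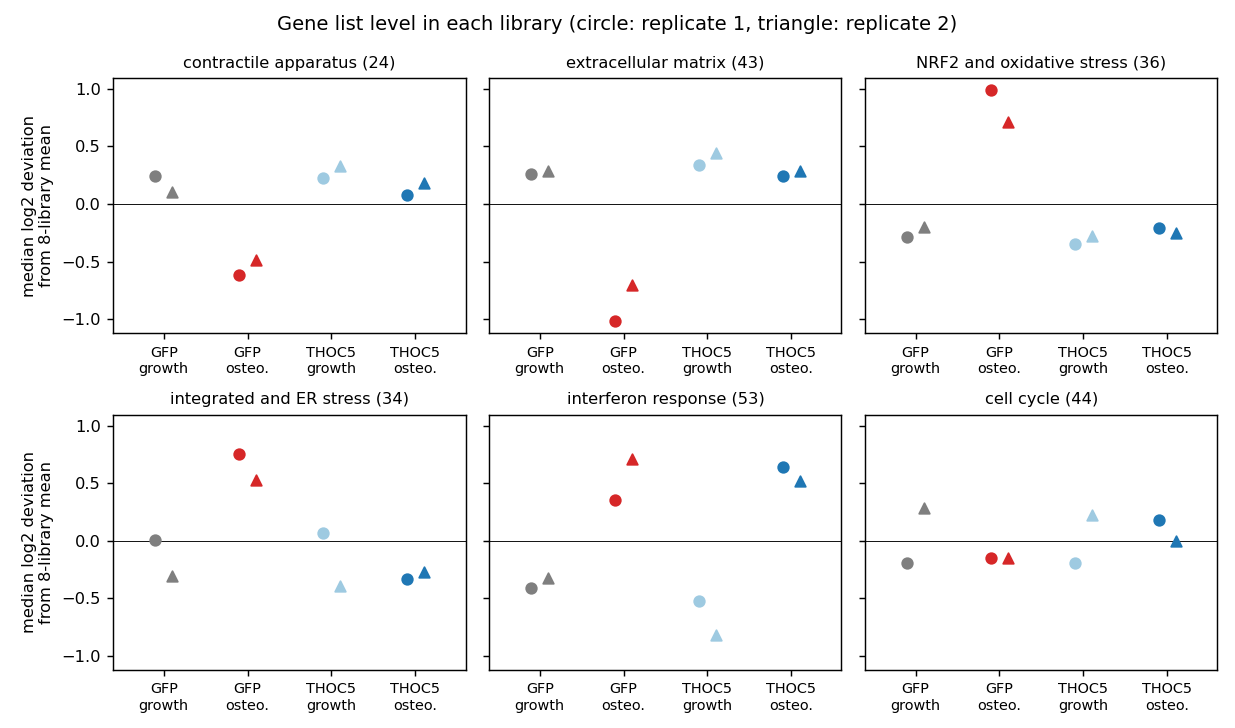
Median log2 deviation from the 8-library mean over the tested members of 6 lists, for each library. The GFP osteogenic libraries stand at -1.02 and -0.70 for the matrix list and at 0.99 and 0.71 for the NRF2 list, both osteogenic groups are raised for the interferon list, and the growth replicates split for the integrated stress and cell cycle lists.

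Interferon genes were the exception to this shape. In GFP cells 45 of 53 rose with the medium and in THOC5 cells 48, with median responses of 0.85 and 1.30. Among all tested genes 10.3% rose in GFP cells and 0.532% in THOC5 cells. The interaction passed in 5 higher and 2 lower members (13.2%, beside 9.22% of all tested genes), with a median of 0.35. By edgeR and by DESeq2 11 members were higher and 2 lower, and scaled to library totals 3 were higher and 3 lower. Isg15, the ubiquitin-like modifier, named after its values were seen, held 582 and 630 counts against 1641 and 1704 in GFP cells and 540 and 463 against 1756 and 1637 in THOC5 cells. In both kinds of cells the osteogenic libraries lay above all growth libraries, and its interaction of 0.30 did not pass (limma adjusted p = 0.216). Irf7, the factor that amplifies interferon production, held 632 and 713 against 1790 and 2016, and 543 and 417 against 2073 and 1984 (0.59, 95% interval 0.21 to 0.97, limma adjusted p = 0.057). It passed by edgeR (adjusted p = 0.0341) and DESeq2 (0.0188) with all libraries.

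Similar responses were bounded by the interval of the interaction. For 26 genes called in the same direction in both kinds of cells, the 95% interval lay within 1.5-fold either way, and 7 of them are on the interferon list. The 8 with the largest responses were Usp18, Oas1a, Ube2l6, Ifih1, Ifi35, Tor3a, Psmb8 and Apol9b. Usp18, which removes ISG15 from proteins, held 1153 and 1062 counts against 2681 and 3064 in GFP cells and 962 and 697 against 2104 and 2086 in THOC5 cells. Its interaction was -0.02 with an interval of -0.43 to 0.39. Oas1a, a sensor of double-stranded RNA, stood at 0.19 (-0.13 to 0.52) and Ifih1, the cytosolic RNA sensor MDA5, at -0.09 (-0.41 to 0.23). Ube2l6, the conjugating enzyme for ISG15, stood at -0.05 (-0.36 to 0.26) and Psmb8, an immunoproteasome subunit, at -0.15 (-0.46 to 0.15). Without single libraries the 26 genes became 1 to 29.

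In 4 genes both responses rose and the THOC5 response was the larger. Oas2, an oligoadenylate synthetase like Oas1a (chr5:120730333-120749853), held 430 and 477 counts against 588 and 792 in GFP cells and 339 and 250 against 1076 and 958 in THOC5 cells (1.21 ± 0.23, limma adjusted p = 0.00862). Dhx58, an RNA helicase of the sensor family, had 0.80 ± 0.15, and Ly6e, a surface protein that restricts viral entry, 0.70 ± 0.12. H2-K1, a class I histocompatibility gene, held 2114 and 2257 against 3449 and 3655, and 1727 and 1665 against 3818 and 3651 (0.44 ± 0.11). In all 4 the THOC5 growth libraries were the lowest of the 8, as in 3.19% of tested genes. With a library left out, limma called 0 to 4 of them and edgeR 3 to 4, and H2-K1 was called in 1 of those 8 edgeR fits.

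Some genes rose in THOC5 cells without a call in GFP cells. Ifi27l2a, which interferon induces, held 590 and 487 against 545 and 598 in GFP cells and 503 and 354 against 1003 and 1127 in THOC5 cells (1.24 ± 0.22). Uba7 (1.10 ± 0.21), the activating enzyme for ISG15, Plekha4 (1.17 ± 0.19), Agrn (0.73 ± 0.13), Lgals3bp (0.72 ± 0.13) and Ly6a (0.76 ± 0.17) had the same shape and were named after their values were seen.

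Chemokine genes on the list went the other way. Cxcl10, whose promoter is printed above, held 93.2 and 97.0 counts against 941 and 1079 in GFP cells and 105 and 64.9 against 311 and 213 in THOC5 cells. It rose in both, and the GFP response was the larger (-1.77 ± 0.31, limma adjusted p = 0.00605). Ccl5 held 207 and 211 against 1098 and 969, and 153 and 141 against 432 and 383 (-0.83 ± 0.15).

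Acute-phase and NF-kB genes gave 10 higher and 2 lower calls among 30 (40.0%, beside 9.22% of all tested genes). Complement C3 held 15924 and 14017 counts against 1389 and 2199 in GFP cells and 18485 and 17970 against 13283 and 16531 in THOC5 cells (2.80 ± 0.25). The acute-phase genes Saa3 (2.12 ± 0.20) and Lcn2 (1.91 ± 0.18) followed. The NF-kB subunit genes Nfkb1 (0.39) and Rela (0.13) and the feedback inhibitor Nfkbia (0.16) did not pass. Ptgs2, the inducible cyclooxygenase, named after its values were seen, went the other way at -1.32 ± 0.17, as did the chemokine Ccl2 at -0.77.

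Signalling genes of the growth factor families followed the matrix genes. The lists below had 56.2%, 34.5%, 34.4% and 35.5% of members called, in turn, beside 9.22% of all tested genes. TGF-beta and BMP signalling gave 17 higher and 1 lower call among 32, with Gdf6 at 132 and 133 against 10.4 and 8.05 in GFP cells and 247 and 270 against 128 and 166 in THOC5 cells (2.90 ± 0.26). Ltbp2, a latent TGF-beta binding protein, had 1.62 ± 0.14 and the TGF-beta-induced gene Tgfbi 1.71 ± 0.15. Wnt signalling gave 10 of 29 higher and 0 lower, including Ccn5 (1.66 ± 0.20) and the receptor Fzd1 (1.16 ± 0.15). Growth factors and receptors gave 10 of 32 higher and 1 lower, with the lymphangiogenic factor Vegfd at 2.16 ± 0.33. Ion channel and calcium handling genes gave 10 higher and 1 lower among 31, including Rgs4 (1.84 ± 0.21) and Rgs5 (1.34 ± 0.18), which restrain G protein signalling.

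Immediate early genes were split, with 3 higher and 4 lower among 27 (25.9%, beside 9.22% of all tested genes). Fosb stood at -2.42 ± 0.43 and the phosphatase Dusp4 at -0.91 ± 0.17, whereas Fosl2 stood at 0.73 ± 0.15. Fos (0.15), Egr1 (0.32) and Jun (-0.11) did not pass.

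Cell cycle genes gave 7 higher and 2 lower calls among 44 (20.5%, beside 9.22% of all tested genes). By edgeR they gave 10 and 5, and by DESeq2 11 and 4. Cenpf, a kinetochore protein, held 622 and 921 against 220 and 310 in GFP cells and 643 and 861 against 838 and 721 in THOC5 cells (1.59 ± 0.29). The mitotic kinesin Kif20a had 1.38 ± 0.28 and cyclin Ccnb2 0.93 ± 0.17. In this list too the growth replicates split, at -0.19 and 0.28 in GFP cells and at -0.19 and 0.22 in THOC5 cells. Cholesterol synthesis gave 2 of 25 higher, among them the sterol factor Srebf2 (0.96 ± 0.20), and 0 lower, with 3 and 4 higher by edgeR and DESeq2. That share of 8.0% was below the 9.22% of all tested genes.

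Among 27 genes of the THO complex and mRNA export 4 were lower and 0 higher (14.8%, beside 9.22% of all tested genes), with a median of -0.29. None of the other THO subunits passed, with Thoc1 at -0.30, Thoc2 at -0.12, Thoc3 at 0.23, Thoc6 at 0.25 and Thoc7 at -0.09. The cap-binding gene Ncbp1 held 378 and 364 counts against 696 and 623 in GFP cells and 405 and 427 against 394 and 359 in THOC5 cells (-0.97 ± 0.14). The export helicase Ddx39 had -0.89 ± 0.17 and Eny2, of the complex at the nuclear pore, -0.55 ± 0.13. Eny2 did not pass by DESeq2 (adjusted p = 0.0538).

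Genes of mRNA decay gave 3 lower calls among 39 and 0 higher, all exosome subunits, Dis3 (-0.89 ± 0.14), Exosc1 (-1.36 ± 0.23) and Exosc2 (-0.99 ± 0.19). The share of 7.69% was close to that of all genes, and edgeR called 6 lower. Nuclear genes of oxidative phosphorylation gave 4 of 43 lower and 0 higher, a share of 9.30% beside 9.22% of all tested genes. The called genes included cytochrome c, Cycs (-1.96 ± 0.24), Uqcrq (-1.03 ± 0.23) and Ndufa10 (-0.50 ± 0.13).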

How the data were processed

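RNA of 8 libraries was analysed from 1 table of the whole series, in which 0 per-sample columns went unused. The deposited signal is each gene's read count over a size factor, found from the values themselves: multiplying it back gave whole reads for 100% of values (largest distance 1.34e-09). The counting tool and the annotation were not given in the sources used here. Bowtie2, SAMtools and mm10 appear in the submitters' processing notes, with no version. The library kit does not mark strand, so reads of overlapping or antisense genes were not separated.

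limma 3.58.1 (R 4.3.3, trend) was fitted to log2(normalized count + 1) of all 8 libraries as 4 groups, without a block, leaving 4 residual degrees of freedom. Benjamini-Hochberg adjustment ran over all tested genes, and fold changes on this scale understate low genes. edgeR 4.0.16 and DESeq2 1.42.0 on the recovered reads, other pseudocounts, filters and scalings, a replicate block and leaving out each library were alternatives. A count of 0 allows up to 3 reads, or 2.59 to 3.99 normalized counts, for counting error alone.

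The 29 gene lists, the comparison and the naming rule were chosen with earlier results of these data known. Named were Thoc5, 10 core genes of contraction and mineralization, the 10 highest and 10 lowest called interactions with a mean of at least 50 and all 4 differences of 1 kind of cell beyond those of the other, which held for 20.4% (higher) and 18.4% (lower) of genes. Predicted gene models were left out. Up to 3 called members per list by p, up to 5 larger in THOC5 cells and 8 similar genes were added. Other list members with values were named for context. The values of 2 genes that the rule named are not reported here.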

Additional observations from a re-analysis of the deposited data

Results flagged for a closer look

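The medium responses of GFP and THOC5 cells differed by the limma interaction test (adjusted p under 0.05) for the genes below, given as log2 interaction values. Without GFP growth replicate 1 none of them passed by limma. No group held the 4 or more libraries needed to test for an outlying sample.

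Contractile, smooth muscle and mineralization genes gave Acta2 0.79, Myh11 1.32, Cnn1 1.06, Mylk 2.14, Alpl 2.18, Mgp 1.31, Slc20a1 -1.0, Itga8 1.69, Prrx1 1.00, Mrtfa 0.56, Tead3 0.66, Bmp4 1.07, Col10a1 1.65, Fgf23 2.33 and Smpd3 1.45. Among genes with a mean of at least 50 normalized counts, the highest values were A2m 5.22, Clca3a2 4.57, Serpina3i 3.92, Kif26b 3.79, Hp 3.50, Draxin 3.38, Fndc1 3.15, Nos2 3.11, Scg2 2.99 and Sfrp2 2.91. Serpina3i and Hp held as few as 2 and 3 reads in a GFP osteogenic library. Those with the lowest values gave Slc7a11 -4.44, Atf3 -2.81, Gsta3 -2.66, Psph -2.49, Prl2c2 -2.43, Gclm -2.39, Trib3 -2.37, Hspa1b -2.29 and Asns -2.26. Atf3, Gsta3 and Prl2c2 reached that mean through the GFP osteogenic group alone. Matrix and protease genes gave Col14a1 2.51, Col6a1 1.66, Emilin1 1.69, Adam12 2.54 and Adamts1 1.5. TGF-beta, Wnt, growth factor and channel genes gave Ltbp2 1.62, Tgfbi 1.71, Gdf6 2.90, Ccn5 1.66, Fzd1 1.16, Pdgfra 1.12, Vegfd 2.16, Rgs4 1.84 and Rgs5 1.34. Stress genes gave Srxn1 -2.01, Txnrd1 -1.92, Pmaip1 -1.75, Mdm2 -1.14, Plk2 -1.36, Aldh1l2 -1.18, Psat1 -1.91, Hmox1 -1.74 and Nqo1 -2.24. Interferon genes and genes that rose in THOC5 cells gave Oas2 1.21, Dhx58 0.80, Ly6e 0.70, H2-K1 0.44, Cxcl10 -1.77, Ifi27l2a 1.24, Ccl5 -0.83, Agrn 0.73, Plekha4 1.17, Uba7 1.10, Lgals3bp 0.72 and Ly6a 0.76. Inflammatory and immediate early genes gave C3 2.80, Saa3 2.12, Lcn2 1.91, Fosb -2.42, Dusp4 -0.91, Fosl2 0.73 and Ptgs2 -1.32. Cell cycle and cholesterol genes gave Ccnb2 0.93, Cenpf 1.59, Kif20a 1.38 and Srebf2 0.96. RNA export, decay and mitochondrial genes gave Ncbp1 -0.97, Ddx39 -0.89, Eny2 -0.55, Dis3 -0.89, Exosc1 -1.36, Exosc2 -0.99, Cycs -1.96, Uqcrq -1.03, Ndufa10 -0.50, mt-Rnr1 -1.51 and mt-Rnr2 -0.79. Markers of other cell types gave Cd14 1.17, Cd68 -0.69, Vwf 2.11, Lpl -0.66, Mbp 0.75 and Wt1 2.11.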

How the results depend on the processing

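With a filter of any value above 0, the interaction calls fell to 1122, the THOC5 response calls to 37 and the similar genes to 10. Leaving out each library gave 0 to 1751 interaction calls by limma, 935 to 2426 by edgeR and 871 to 1762 by DESeq2, the last 2 chosen after seeing the data. edgeR gave 1306 interactions without GFP osteogenic replicate 1. DESeq2 gave 1165 when GFP growth replicate 2 was left out, 1020 for GFP osteogenic replicate 1, and 1126 and 1188 without replicate 1 of the THOC5 growth or osteogenic libraries. GFP response calls ranged from 2067 to 4496 by limma, 2821 to 4884 by edgeR and 1926 to 3505 by DESeq2, THOC5 response calls from 8 to 106 by limma, 74 to 168 by edgeR and 94 to 156 by DESeq2, and similar genes from 1 to 29. By DESeq2 the GFP response had 2448 and 2227 calls when GFP growth replicate 1 or 2 was left out and 2933 when GFP osteogenic replicate 2 was. The cause was not tested. Pseudocounts of 0.5 and 5, a mean of at least 10, TMM and library totals gave 1985 to 2822 interaction calls, and the higher share went from 57.5% to 51.8% (TMM) and 39.1% (totals). All 2082 genes kept their sign wherever fitted (2020 of 2020 with a mean of at least 10). These fits reuse libraries that made the calls, so the agreement is no further test of them. The median interaction of each of the 29 lists kept its sign under TMM and library totals. Same-numbered replicates correlated between groups at -0.188 to 0.402, so the numbers were not taken to pair the samples, although the value for the 2 growth groups was 0.402, and with the replicate block the interaction calls were 2238. On simulated data, with far fewer changed genes than were called here, 0 of 67 interactions of 1.5-fold were recovered.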

Other observations

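In GFP cells both mitochondrial ribosomal RNAs had higher counts in osteogenic medium, while the listed mitochondrial mRNAs had negative values. The libraries are of polyA RNA, and whether the capture of ribosomal RNA differed between them was not tested. mt-Rnr1, the small ribosomal RNA, held 5124 and 5583 normalized counts against 18710 and 16094 in GFP cells and 4573 and 5176 against 5758 and 5310 in THOC5 cells (interaction -1.51 ± 0.15, limma adjusted p = 3.29e-04). mt-Rnr2, the large one, held 14019 and 14616 against 21692 and 20547, and 12581 and 12842 against 11379 and 10290 (-0.79 ± 0.13, adjusted p = 0.00471). The mRNA of mt-Cytb, an apocytochrome, was lower in osteogenic medium in both kinds of cells, at 25640 and 24930 against 13469 and 14825 and at 27769 and 28732 against 18524 and 19426, with an interaction of 0.26 that did not pass. mt-Nd5 stood at -0.88 in GFP cells and -0.42 in THOC5 cells, and mt-Co1 at -0.67 and -0.24. mt-Nd1 (-0.22 and -0.33) and mt-Nd2 (-0.13 and -0.38) had more negative values in THOC5 cells. In THOC5 cells mt-Rnr2, at -0.23, was close to mt-Co1.

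The growth replicates of both kinds of cells differed in several genes, in the same direction for equal replicate numbers. Asns was 1134 and 1411 in replicate 1 of GFP and THOC5 growth cells and 683 and 669 in replicate 2, and Trib3 was 375 and 358 against 152 and 118. Wt1, the mesothelial factor, went the other way, at 25.6 and 25.1 against 53.2 and 52.5.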
